A study of Mus musculus with 20 samples.

Results

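The retinoid cycle is the set of reactions that returns the light-spent chromophore of the visual pigments to its light-sensitive form. All-trans retinal is released from bleached opsin in the photoreceptor outer segment, moved across the disc membrane by a transporter, reduced to retinol there, and carried through the space between the cells to the pigment epithelium. That epithelium esterifies it, isomerises the ester and oxidises the product back to the cis aldehyde, which returns to the photoreceptors; Müller glia run a related route for cones. The 9 genes described here are members of this cycle: the carrier Rbp3, the transporter Abca4, the retinol dehydrogenases Rdh8, Rdh12, Rdh11, Rdh10 and Rdh5, the esterifying enzyme Lrat and the isomerase Rpe65. They were chosen as the probe sets whose only platform gene symbol is one of these names, which gave 9 probe sets, 1 for each gene, of 35557 on the array. A further probe set, which the platform pairs with both Pwwp3a and Rdh11, was left out.

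Transcript intensities came from 20 Affymetrix arrays of retina from C57BL/6 mice aged 7 to 8 weeks. The photoreceptor layer (cell bodies with inner and outer segments), the inner nuclear, the inner plexiform and the ganglion cell layer were cut out by laser capture microdissection. Whole retina, not divided into layers, was profiled as well, so tissue and dissection cannot be told apart between it and the layers. Each of these 5 tissues has 2 arrays from mice light adapted for 6 h, with a light phase of 450 lux, and 2 from mice dark adapted for 3 h at no more than 0.4 lux. Every group is of this 1 strain and no other allele or agent is labelled. No label says which animal an array came from, so each p-value measures the spread between deposited arrays, of which an unknown part may be technical.

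Median intensities were 37.5 to 40.8 per array and replicates correlated, across genes, at 0.85 to 0.96. All 10 tested rod markers were higher in the photoreceptor layer than in the mean of the other 3 layers, as were 7.26% of all genes. Their median log2 difference was 2.79 against -0.06 over all genes. Ganglion cell markers had a mean log2 level of 7.91 in the ganglion cell layer against 5.23 to 5.99 in the other 3. Rod markers were also measured in the inner layers and differed between their arrays, from a mean log2 level of 5.56 to 7.58, against 9.26 to 9.46 in the photoreceptor layer. Of 16 pigment epithelium markers outside the 9 genes, 12 passed the filter on dim probe sets, while Tyr, Dct, Oca2 and Ermn did not. Their mean log2 level was 5.37 to 5.52 on the photoreceptor layer arrays, 5.31 to 5.70 on the inner layer arrays and 5.19 to 5.29 on the whole retina arrays. Median Y-linked intensity was above 100 on 5 of the 10 light-adapted arrays and on no dark-adapted array. These were both light-adapted ganglion cell layer arrays and light-adapted replicate 1 of the photoreceptor layer, the inner nuclear layer and the whole retina. In the ganglion cell layer, Y-linked signal and adaptation thus cannot be told apart. The part of Y-linked signal in the results was not tested beyond leaving these arrays out.

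Of the 9 genes, 6 had a log2 value over 5 on at least 2 arrays and were tested: Rbp3, Abca4, Rdh12, Rdh8, Rdh10 and Rdh5. Rbp3, Abca4, Rdh8 and Rdh10 exceeded that level on all 20 arrays, Rdh12 on 19 and Rdh5 on 16. Rdh11 and Lrat did so on 1 array each and Rpe65 on 0, so these 3 are described by their values. Log2 values were taken after setting intensities under 8 to 8, and levels are not compared between genes, since each probe set binds with its own strength.

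The promoters of the 4 genes that were higher in the photoreceptor layer are shown first, with that of Rpe65 as a gene near the floor in every tissue. Each is the 250 bases before the gene start from RefSeq (GRCm38.p6), 5′ to 3′ on the plus strand, which is the strand of all 5 genes. Capitals mark 3 short motifs on either strand: TAATCC, which reads GGATTA on the other strand, a core bound by CRX and OTX2, homeodomain factors of photoreceptors and pigment epithelium; TAATTA, a general homeodomain core; and TGCTGA, which reads TCAGCA on the other strand, part of the site of NRL, the rod leucine zipper factor.
Rbp3, chr14:33953753-33954002: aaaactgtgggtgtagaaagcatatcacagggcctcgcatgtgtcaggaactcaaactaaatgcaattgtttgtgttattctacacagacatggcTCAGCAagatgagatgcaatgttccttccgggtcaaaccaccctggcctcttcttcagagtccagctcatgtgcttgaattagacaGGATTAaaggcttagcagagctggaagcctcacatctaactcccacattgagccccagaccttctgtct
Abca4, chr3:122044210-122044459: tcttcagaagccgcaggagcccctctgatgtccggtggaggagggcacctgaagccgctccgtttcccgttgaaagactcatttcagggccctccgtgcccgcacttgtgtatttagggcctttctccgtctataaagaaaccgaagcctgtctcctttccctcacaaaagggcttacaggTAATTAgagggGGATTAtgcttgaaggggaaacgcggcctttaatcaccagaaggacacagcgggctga
Rdh12, chr12:79208663-79208912: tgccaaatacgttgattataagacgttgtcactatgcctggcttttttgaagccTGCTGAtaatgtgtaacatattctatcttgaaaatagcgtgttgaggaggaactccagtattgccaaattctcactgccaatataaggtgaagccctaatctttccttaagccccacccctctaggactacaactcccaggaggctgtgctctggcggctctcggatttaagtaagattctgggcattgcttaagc
Rdh8, chr9:20818244-20818493: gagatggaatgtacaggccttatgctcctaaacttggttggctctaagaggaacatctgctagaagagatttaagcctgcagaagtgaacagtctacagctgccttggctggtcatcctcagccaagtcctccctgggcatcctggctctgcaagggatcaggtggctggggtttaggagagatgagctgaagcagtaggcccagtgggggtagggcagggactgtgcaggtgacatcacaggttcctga
Rpe65, chr3:159598931-159599180: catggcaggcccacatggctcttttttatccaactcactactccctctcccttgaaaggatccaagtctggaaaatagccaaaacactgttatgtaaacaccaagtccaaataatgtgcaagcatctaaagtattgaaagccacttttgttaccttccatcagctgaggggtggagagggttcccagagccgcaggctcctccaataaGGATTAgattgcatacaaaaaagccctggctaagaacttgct

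The TAATCC core stood in the windows of Rbp3, Abca4 and Rpe65, with its first base 69, 58 and 42 bases before the gene start, in each case on the strand opposite the gene. It stood in 6.25% of all 32851 promoter windows of this length, TAATTA in 4.84% and TGCTGA in 16.1%. TAATTA was present in Abca4, where it starts 69 bases before the gene start and so close to the TAATCC core, and in 1 of the windows of Rdh11. TGCTGA was present in Rbp3 and Rdh12. None of the 3 letter strings was in the windows of Rdh8, Rdh5 and Lrat, and Rdh10 was not among the 8 of the 9 genes with a window. A match describes the letters only; the core was in genes that were high in the photoreceptor layer and in 1 that was near the floor.

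The carrier Rbp3, which encodes the interphotoreceptor retinoid-binding protein secreted by photoreceptors, was higher in the photoreceptor layer than in every other layer. Its intensity there was 1089 and 1290 on the light-adapted and 1272 and 1230 on the dark-adapted arrays. In the inner nuclear layer it was 102.1 and 105.8 in light and 114.4 and 211.0 in dark, in the inner plexiform layer 102.5 and 95.6 in light and 265.6 and 42.5 in dark, and on ganglion cell layer arrays 70.9 and 366.1 in light and 64.2 and 70.8 in dark. The 4 photoreceptor arrays thus lay above all 12 inner arrays, and the inner arrays differed widely among themselves. The difference from the mean of the other 3 layers was 3.46 ± 0.38 (SE) on the log2 scale, or 11.0-fold (limma adjusted p = 7.9e-06, n = 4 against 12, 95% interval 2.66 to 4.25). Against the inner nuclear, inner plexiform and ganglion cell layers taken singly it was 3.26 ± 0.46, 3.57 ± 0.46 and 3.55 ± 0.46 (adjusted p = 0.00024, 7.3e-05 and 7.8e-05).

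Abca4, the outer segment transporter that clears all-trans retinal from the disc lumen, was likewise higher in the photoreceptor layer than in every other layer. Its intensity in the photoreceptor layer was 543.4 and 615.1 in light and 585.7 and 578.7 in dark. The inner nuclear layer arrays gave 101.0 and 68.8 in light and 120.3 and 136.9 in dark, the inner plexiform layer arrays 77.4 and 91.6 in light and 95.5 and 50.8 in dark, and the ganglion cell layer arrays 63.1 and 128.2 in light and 90.5 and 34.7 in dark. The photoreceptor arrays were again above all 12 others, with little spread between them (log2 SD 0.07, n = 4). The difference from the other 3 layers was 2.81 ± 0.23, or 7.03-fold (limma adjusted p = 3.4e-07, n = 4 against 12). Layer by layer it was 2.49 ± 0.28 against the inner nuclear, 2.92 ± 0.28 against the inner plexiform and 3.03 ± 0.28 against the ganglion cell layer.

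Rdh12 and Rdh8 encode the dehydrogenases that reduce retinal in photoreceptors, Rdh12 in the inner and Rdh8 in the outer segment. Rdh12 had intensities of 171.0 and 231.5 in light and 190.1 and 186.3 in dark in the photoreceptor layer. The inner nuclear layer gave 37.8 and 58.9 in light and 39.4 and 61.4 in dark, the inner plexiform layer 67.2 and 74.5 in light and 59.0 and 61.3 in dark, and the ganglion cell layer 38.0 and 53.0 in light and 43.3 and 25.9 in dark. No inner array reached a photoreceptor array, and the difference was 1.96 ± 0.16, or 3.90-fold (limma adjusted p = 4.5e-07, n = 4 against 12). It was 2.01 ± 0.20, 1.57 ± 0.20 and 2.32 ± 0.20 against the inner nuclear, inner plexiform and ganglion cell layers (adjusted p = 8.1e-06, 6.8e-05 and 1.3e-06).

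Rdh8 showed a smaller difference, and 1 inner plexiform layer array from light-adapted mice lay within the range of the photoreceptor layer. Its photoreceptor layer intensities were 128.6 and 176.6 in light and 171.9 and 174.8 in dark, and those of the inner plexiform layer 111.5 and 165.7 in light and 86.6 and 81.9 in dark. The inner nuclear layer arrays lay at 72.8 and 80.2 in light and 89.0 and 69.5 in dark, and the ganglion cell layer arrays at 86.4 and 91.6 in light and 86.2 and 65.0 in dark, all below the photoreceptor layer. Against the mean of the 3 other layers the difference was 0.88 ± 0.14, or 1.84-fold (limma adjusted p = 0.00038, n = 4 against 12). It was 1.06 ± 0.17 against the inner nuclear layer, 0.99 ± 0.17 against the ganglion cell layer and 0.60 ± 0.17 against the inner plexiform layer (adjusted p = 0.00081, 0.0011 and 0.020). The last call was lost without photoreceptor layer replicate 2 in light (0.48, adjusted p = 0.099), replicate 1 or 2 in dark (0.60 and 0.59, adjusted p = 0.052 and 0.059) or inner plexiform layer replicate 1 in light (0.45, adjusted p = 0.089). Without both light-adapted inner plexiform layer arrays, whose removal took that layer's calls against the other 3 from 2045 to 35 genes, the Rdh8 difference was 0.94 and passed (adjusted p = 0.0085).

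**Figure D1:**
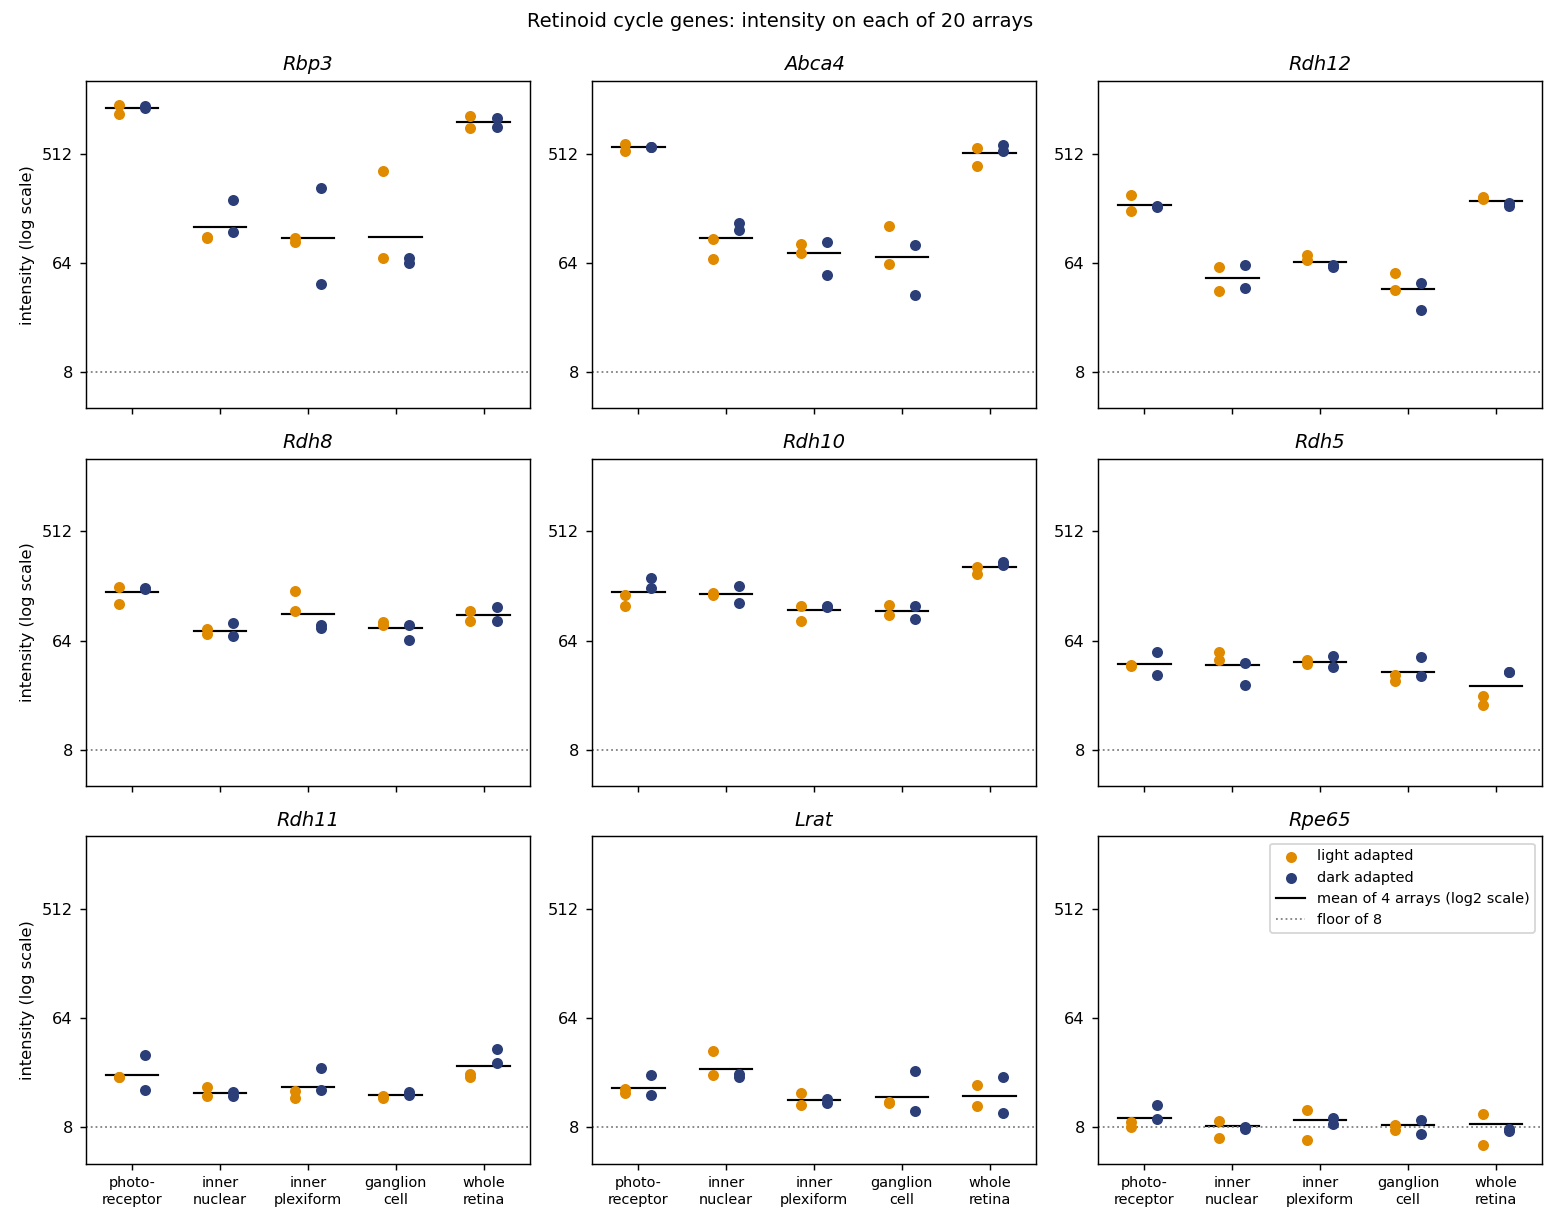
Intensity (log scale) of the 9 genes on each of the 20 arrays, by tissue, with light-adapted arrays in orange and dark-adapted arrays in blue; bars are means of 4 arrays on the log2 scale and the dotted line is the floor of 8. The 4 photoreceptor layer arrays of Rbp3, Abca4 and Rdh12 lie above all 12 inner layer arrays, while Rdh11, Lrat and Rpe65 stay between 5.7 and 35.3 in all tissues.

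In all, 4 of the 6 tested genes were higher in the photoreceptor layer than in the mean of the other 3 layers and 0 were lower, where 7.26% of the 15057 genes tested were higher. For 3 of the 6, Rbp3, Abca4 and Rdh12, the 4 arrays lay above all 12 others, a pattern of 3.49% of all genes. Rdh8 and these 3 also passed against every other layer on its own, as did 3.06% of all genes. The median difference of the 6 was 1.42, against -0.06 over all genes. Layer by layer, 4 of 6 were higher than in the inner nuclear layer (4.07% of all genes), 5 of 6 than in the inner plexiform layer (9.68%) and 5 of 6 than in the ganglion cell layer (4.57%), the fifth gene being Rdh10. In bulk tissue, fewer cells of a type and less RNA per cell cannot be told apart.

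**Figure D2:**
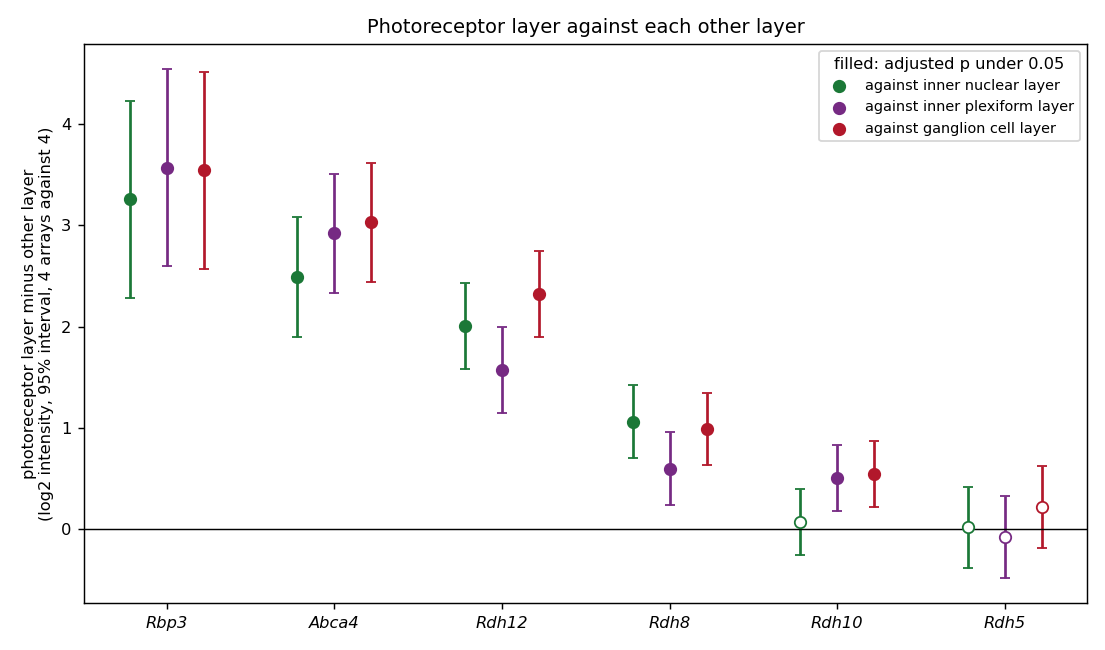
Difference in log2 intensity between the photoreceptor layer and each other layer for the 6 tested genes, with 95% intervals of the limma fit (4 arrays against 4); filled points passed an adjusted p of 0.05. Rbp3 and Abca4 differ by 2.49 to 3.57, Rdh12 by 1.57 to 2.32 and Rdh8 by 0.60 to 1.06, while the intervals of Rdh5 all include 0.

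Rdh10, a retinol dehydrogenase of pigment epithelium and Müller glia, had another order of mean levels, in which not every step passed the test. It was highest in the whole retina, then in the photoreceptor and inner nuclear layers, then in the other 2. Its intensities were 227.5 and 261.2 in light and 271.2 and 285.0 in dark in the whole retina, and 153.2 and 123.4 in light and 175.0 and 212.6 in dark in the photoreceptor layer. The inner nuclear layer gave 153.6 and 159.1 in light and 131.6 and 182.3 in dark, the inner plexiform layer 123.6 and 92.3 in light and 122.4 and 124.6 in dark, and the ganglion cell layer 104.7 and 125.3 in light and 96.2 and 122.8 in dark. All 4 whole retina arrays lay above all 16 layer arrays, which 5.33% of all genes also did, and Rdh10 was the only 1 of the 6 to do so. Tissue and dissection cannot be told apart in this pattern. The whole retina was 0.68 ± 0.16 higher than the photoreceptor layer (limma adjusted p = 0.015, n = 4 against 4). This call was lost without whole retina replicate 2 in light or in dark (0.63 and 0.66, adjusted p = 0.085 and 0.062), or without photoreceptor layer replicate 2 in light or replicate 1 in dark (0.60 and 0.61, adjusted p = 0.062 and 0.063). In the same comparison, where 10.4% of all genes passed in either direction, 10 of 14 Müller glia markers were higher. Their median was 0.80 against -0.13 over all genes. Of the bipolar cell markers 7 of 8 were higher, with a median of 1.34. So were 3 of 8 ganglion cell markers with 0.60, 3 of 9 amacrine cell markers with 0.48 (1 was lower) and 2 of 5 horizontal cell markers with 0.06. Of the 12 pigment epithelium markers 0 were higher and 1 was lower, with a median of -0.20. The part of any of these cell types in the Rdh10 difference was not tested.

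Among the dissected layers Rdh10 differed by 0.07 ± 0.16 between the photoreceptor and inner nuclear layers (95% interval -0.26 to 0.39). The photoreceptor layer was above the inner plexiform layer by 0.50 ± 0.16 and above the ganglion cell layer by 0.55 ± 0.16 (limma adjusted p = 0.029 and 0.038, n = 4 against 4). The first of these was lost on leaving out photoreceptor layer replicate 1 in light or replicate 2 in dark, or inner plexiform layer replicate 2 in light or either dark replicate (0.40 to 0.51, adjusted p = 0.052 to 0.11), without both light-adapted inner plexiform layer arrays (0.40, adjusted p = 0.22), without the arrays with Y-linked signal (0.43, adjusted p = 0.15) and in a fit of the compared arrays alone (adjusted p = 0.053). The second was lost on leaving out any of 10 arrays: all 4 of the photoreceptor layer, replicate 1 of the ganglion cell layer in light or in dark, both light-adapted inner nuclear layer arrays and both dark-adapted whole retina arrays, each in turn (0.46 to 0.62, adjusted p = 0.051 to 0.17). It was also lost without the arrays with Y-linked signal (0.51, adjusted p = 0.32), with no intensity trend (adjusted p = 0.055) and in a fit of the compared arrays alone (adjusted p = 0.064). Against the mean of the other 3 layers the photoreceptor layer was at 0.37 ± 0.13 (adjusted p = 0.064), and passed without inner plexiform layer replicate 1 in light (0.41, adjusted p = 0.040) or inner nuclear layer replicate 2 in dark (0.41, adjusted p = 0.036). It passed as well with quantile normalisation (adjusted p = 0.048), the filter at log2 over 7 (0.031), array weights (0.026) and the replicate block (0.040). The inner nuclear layer arrays did not overlap those of the inner plexiform or ganglion cell layer, but the differences of 0.44 ± 0.16 and 0.48 ± 0.16 did not pass (adjusted p = 0.12 and 0.33).

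Rdh5, which oxidises the cis retinol in pigment epithelium, was dim and nearly level. Its intensities ranged from 33.5 to 51.0 in the photoreceptor, 27.6 to 51.4 in the inner nuclear, 39.0 to 47.9 in the inner plexiform and 29.7 to 47.0 in the ganglion cell layer. The difference of the photoreceptor layer from the other 3 was 0.05 ± 0.16 (limma adjusted p = 0.87, 95% interval -0.28 to 0.38). In the whole retina it was 22.2 and 18.9 in light and 35.2 and 35.0 in dark, at -0.60 ± 0.19 from the photoreceptor layer (adjusted p = 0.054). That value passed when dark-adapted inner nuclear layer replicate 1 or 2 was left out, with adjusted p = 0.045 for each. It also passed with the replicate number as a block (adjusted p = 0.025), with array weights (0.021), in a fit of the compared arrays alone (0.035) and with no intensity trend (0.049).

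Rdh11, a broadly expressed retinal reductase and the closest relative of Rdh12 among these genes, had intensities of 14.0 to 25.0 on the inner layer arrays. The photoreceptor layer arrays lay at 20.7 and 20.9 in light and 32.0 and 16.2 in dark, and the whole retina arrays at 22.1 and 20.9 in light and 35.3 and 27.3 in dark, so the layers overlapped. Lrat, which esterifies retinol in the pigment epithelium, was at 21.9 and 34.3 in light and 22.3 and 20.8 in dark in the inner nuclear layer. On the other arrays it was at 10.5 to 23.2, so that 3 of the 4 inner nuclear layer arrays lay within that range and 1 above it. Rpe65, the isomerase of the pigment epithelium, was at 5.7 to 12.2 on the 20 arrays, with 8 of them under the floor. Its values in the photoreceptor layer (8.8 and 8.1 in light, 9.4 and 12.2 in dark) overlapped those of the whole retina (10.4 and 5.7 in light, 7.4 and 7.7 in dark). In a limma fit with no filter on dim probe sets none of these 3 genes passed in any comparison. The nearest were Rdh11 at 0.46 ± 0.16 in the photoreceptor layer against the other 3 (adjusted p = 0.11) and Lrat at 0.85 ± 0.27 in the inner nuclear against the inner plexiform layer (adjusted p = 0.11).

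Outside the photoreceptor layer the levels of the 6 genes had no order that passed the test. Between the inner nuclear and inner plexiform layers 0 of 6 passed (4.85% of all genes did), between the inner nuclear and ganglion cell layers 0 of 6 (0.458%), and 0 of 6 between the inner plexiform and ganglion cell layers (3.10%). At an unadjusted limma p under 0.05 there were 3, 1 and 2, and the shares of all genes at that threshold were not counted. The nearest was Rdh12, whose inner plexiform layer arrays all lay above the ganglion cell layer arrays, by 0.75 ± 0.20 (adjusted p = 0.051). That difference passed when any of the 4 inner nuclear layer arrays (0.75, adjusted p = 0.041 to 0.050) or ganglion cell layer replicate 1 in dark (0.94, adjusted p = 0.029) was left out.

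Each inner layer was also set against the mean of the other 3. That mean holds the photoreceptor layer, so lower values of Rbp3, Abca4, Rdh12 and Rdh8 here restate in part its higher level. Between the inner layers alone 0 of 6 passed in each comparison, as given above. In the inner nuclear layer 0 of 6 passed, where 0.611% of all genes did. Under an unadjusted limma p of 0.05 there were 5 of 6, and the share of all genes at that threshold was not counted. Rdh12 was at -0.71 ± 0.16 (adjusted p = 0.063). It passed without ganglion cell layer replicate 1 in light (-0.75, adjusted p = 0.042) or replicate 2 in dark (-0.77, adjusted p = 0.033). In the inner plexiform layer 2 of 6 were lower (5.29% of all genes), Abca4 at -1.08 ± 0.23 and Rbp3 at -1.30 ± 0.38 (adjusted p = 0.0060 and 0.030). The Rbp3 call was lost without either light-adapted array of the layer (-1.33 and -1.28, adjusted p = 0.085 and 0.080) or dark-adapted replicate 2 (-0.64, adjusted p = 0.21), and both calls without the 2 light-adapted arrays (Rbp3 -1.25, adjusted p = 0.34, and Abca4 -1.22, adjusted p = 0.14). In the ganglion cell layer 2 of 6 were lower (0.704%): Rdh12 at -1.13 ± 0.16 (adjusted p = 0.0014) and Abca4 at -1.23 ± 0.23 (adjusted p = 0.0086). Abca4 lost its call without replicate 1 in light (-0.97, adjusted p = 0.058) or replicate 2 in dark (-0.88, adjusted p = 0.11). Rbp3 was at -1.27 ± 0.38 (adjusted p = 0.12) there, and passed without ganglion cell layer replicate 2 in light (-1.86, adjusted p = 0.011) or inner plexiform layer replicate 2 in dark (-1.49, adjusted p = 0.0085).

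In each inner layer the array with the highest Rbp3 also had the highest rod marker level, but the other arrays did not all follow that order. Within the ganglion cell layer the array with the highest Rbp3, light-adapted replicate 2 at 366.1, had a mean log2 rod marker level of 7.58, against 5.56 to 6.36 on the other 3. Of those 3, dark-adapted replicate 1 had the highest rod marker level, 6.36, and the lowest Rbp3, 64.2. In the inner nuclear layer dark-adapted replicate 2 had the highest Rbp3, 211.0, and a rod marker level of 7.46, against 5.86 to 6.77. In the inner plexiform layer the highest and lowest Rbp3, 265.6 and 42.5 on the 2 dark-adapted arrays, went with rod marker levels of 7.09 and 6.35. The part of rod RNA in the inner layer values of Rbp3 and Abca4 was not tested. Rdh10 was at 131.6 to 182.3 in the inner nuclear layer, with rod marker levels of 5.86 to 7.46, and at 123.4 to 212.6 in the photoreceptor layer, with 9.26 to 9.46.

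**Figure D3:**
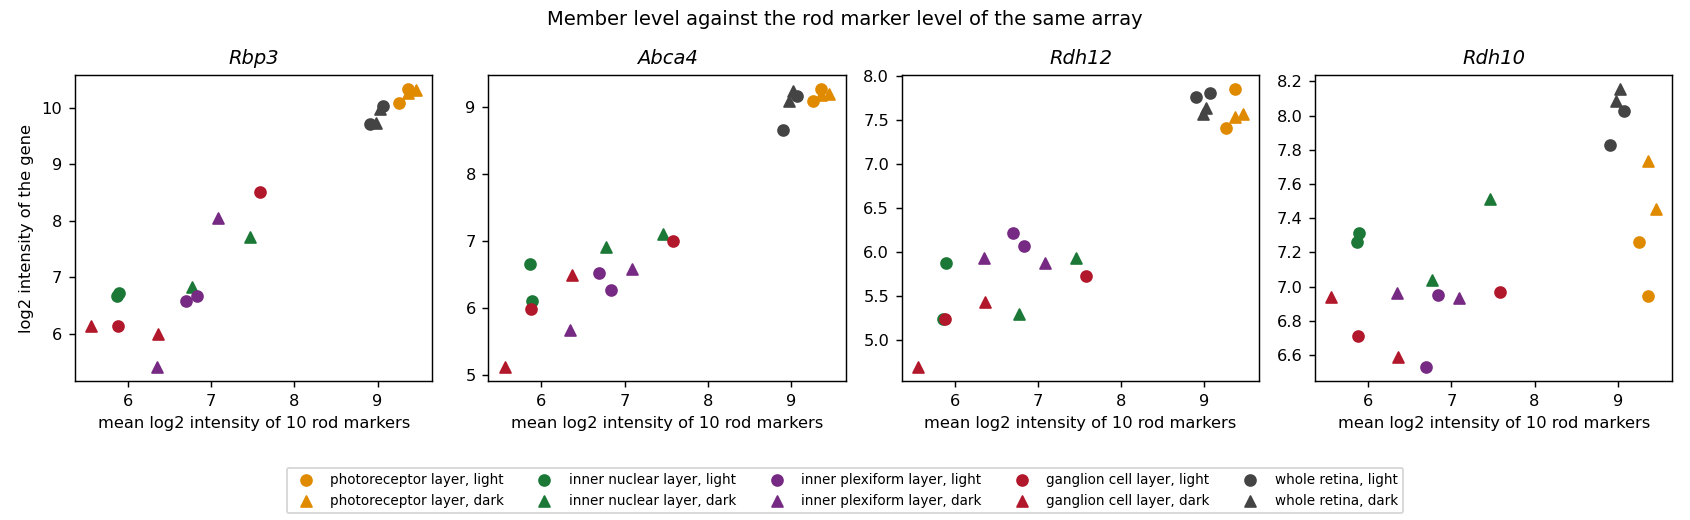
Log2 intensity of Rbp3, Abca4, Rdh12 and Rdh10 on each array against the mean log2 intensity of 10 rod markers on the same array; colour gives the tissue, circles light and triangles dark adaptation. Inner layer arrays spread from 5.56 to 7.58 on the rod axis, and the photoreceptor layer and whole retina arrays lie between 8.90 and 9.46.

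In the whole retina Rbp3, Abca4 and Rdh12 did not differ from the photoreceptor layer by an amount that passed the test, and Rdh8 was lower. Rbp3 was at 844.5 and 1047 in light and 848.0 and 1006 in dark, all 4 below the photoreceptor layer arrays, with a difference of -0.39 ± 0.46 (limma adjusted p = 0.57). Abca4 was at 402.7 and 573.6 in light and 541.4 and 604.0 in dark, at -0.15 ± 0.28, and Rdh12 at 217.3 and 225.3 in light and 191.0 and 199.1 in dark, at 0.10 ± 0.20, both overlapping the photoreceptor layer. Rdh8 was at 113.0 and 93.8 in light and 93.4 and 122.4 in dark, with a difference of -0.62 ± 0.17 (adjusted p = 0.030). Rbp3 and Rdh8 were the 2 of 6 with all whole retina arrays below all photoreceptor layer arrays, a pattern of 14.0% of all genes. The limma call of Rdh8 was lost without photoreceptor layer replicate 2 in light or either dark replicate. It was also lost without whole retina replicate 2 in light or either dark replicate. With each of these arrays left out in turn, the Rdh8 differences were -0.72 to -0.51. With Rdh10 higher and Rdh8 lower, 2 of 6 passed in this comparison, against 10.4% of all genes. Tissue and dissection cannot be told apart in it.

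Dark and light adaptation were compared to see whether the cycle's transcripts follow the light to which the retina was exposed. None of the 6 genes passed in any tissue: 0 of 6 in the photoreceptor layer (0.0465% of all genes passed), the inner nuclear (0%), inner plexiform (1.83%) and ganglion cell layers (0.00664%) and whole retina (0.0266%), all with limma at an adjusted p of 0.05. At an unadjusted p under 0.05, for which shares of all genes were not counted, there were 1 of 6 in the photoreceptor layer, the inner plexiform layer and the whole retina, and 0 in the other 2. In the photoreceptor layer this was Rdh10, whose dark-adapted arrays both lay above the light-adapted ones, by 0.49 ± 0.22 (adjusted p = 1, n = 2 against 2). In the inner plexiform layer it was Rdh8, with a difference of -0.69 ± 0.24 (adjusted p = 0.14). In the whole retina it was Rdh5, at 0.78 ± 0.27 (adjusted p = 1). For the photoreceptor genes in their own layer the dark minus light differences were 0.08 ± 0.65 for Rbp3, 0.01 ± 0.40 for Abca4, -0.08 ± 0.28 for Rdh12 and 0.20 ± 0.24 for Rdh8. Their 95% intervals, -1.30 to 1.45, -0.83 to 0.85, -0.68 to 0.52 and -0.31 to 0.71, each include 0. With 2 arrays per state, changes within these intervals were not excluded. The intervals are not limits of detection, since the Rdh10 and Rdh5 differences given above did not pass either.

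The 2 dark-adapted and 2 light-adapted arrays did not overlap for 1 of 6 genes in the photoreceptor layer (32.0% of all genes), 3 in the inner nuclear layer (30.2%), 2 in the inner plexiform layer (41.8%), 2 in the ganglion cell layer (28.8%) and 3 in whole retina (24.8%), counts near these shares that say nothing particular of the 6. In the inner nuclear layer these were Rbp3 (0.58 ± 0.65) and Abca4 (0.62 ± 0.40), both higher in dark, and Rdh5 (-0.49 ± 0.27). In the ganglion cell layer they were Rbp3 at -1.26 ± 0.65, a difference that rests on the single light-adapted value of 366.1, and Rdh8 at -0.25 ± 0.24. Both light-adapted arrays of that layer had Y-linked signal, which cannot be told apart from adaptation there.

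Averaged over the 5 tissues, 10 arrays against 10, 0 of 6 passed (0.0133% of all genes did) and 0 were under an unadjusted limma p of 0.05. These differences ran from -0.17 ± 0.13 for Rdh12 to 0.16 ± 0.10 for Rdh10. A moderated F test of whether the dark effect differed between tissues called 0 of 6 (0.0266% of all genes) and gave 0 at an unadjusted limma p under 0.05, with the lowest adjusted p, 0.85, for Rdh5. Within each adaptation state, the difference of the photoreceptor layer from the other 3 layers was 3.32 in light and 3.59 in dark for Rbp3, 2.75 and 2.87 for Abca4, 1.91 and 2.02 for Rdh12, and 0.63 and 1.13 for Rdh8, and its change between the states was not tested on its own.

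**Figure D4:**
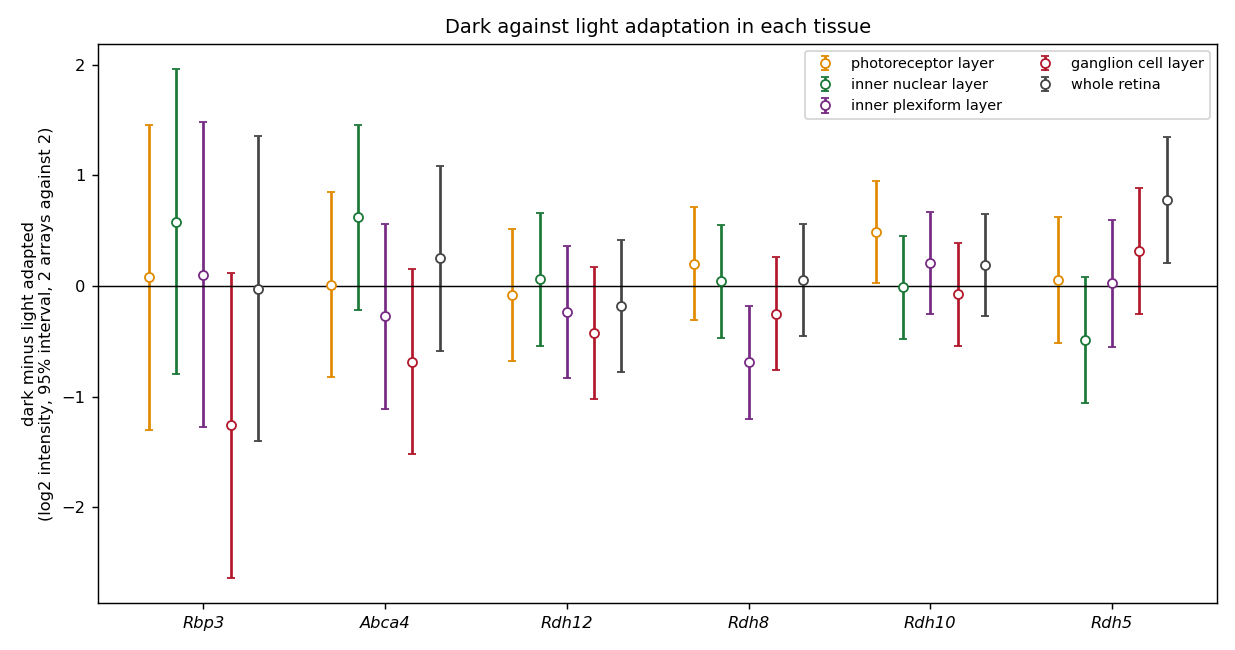
Dark minus light difference in log2 intensity of the 6 tested genes in each tissue, with 95% intervals (2 arrays against 2); none passed an adjusted p of 0.05. The intervals that do not include 0 are those of Rdh10 in the photoreceptor layer (0.49), Rdh8 in the inner plexiform layer (-0.69) and Rdh5 in the whole retina (0.78).

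Other genes of retinoid handling were taken from a list of 55, of which 40 were tested. In the photoreceptor layer against the other 3, 4 of 40 were higher and 2 lower, near the shares over all genes (7.26% and 5.69%), with a median of -0.05 against -0.06. The higher ones were Dhrs3, a retinal reductase of cone outer segments (1.27 ± 0.15, limma adjusted p = 2.6e-05), the scavenger receptor Scarb1 (0.77 ± 0.15, adjusted p = 0.0021), and the cone opsins Opn1mw (2.46 ± 0.20) and Opn1sw. Dhrs3 was at 164.5 to 196.3 in the photoreceptor layer and at 46.1 to 101.4 in the inner layers, with no overlap. Opn1sw had a mean log2 level of 9.21 on the light-adapted photoreceptor layer arrays and was under the floor on both dark-adapted ones and on 10 of the 12 inner layer arrays, so no difference is given for it. The lower ones were the retinoic acid receptor Rarg (-0.42 ± 0.13, adjusted p = 0.043) and Rlbp1 (-0.83 ± 0.13, adjusted p = 0.00046). The Rarg call was lost without both light-adapted inner plexiform layer arrays (-0.27, adjusted p = 0.20). It was also lost on leaving out any 1 array (adjusted p = 0.051 to 0.23) other than light-adapted replicate 1 of the inner nuclear or inner plexiform layer or either light-adapted whole retina array.

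Rlbp1 encodes CRALBP, which binds the cis retinoid in Müller glia and pigment epithelium. It was at 42.9 to 53.5 in the photoreceptor layer, 131.5 to 217.3 in the inner nuclear layer, 51.4 to 144.2 in the inner plexiform layer, 40.2 to 58.0 in the ganglion cell layer and 137.2 to 194.5 in the whole retina. In the inner nuclear layer it was the 1 gene of 40 that was higher (0.252% of all genes were), by 1.38 ± 0.13 (limma adjusted p = 4.7e-05, n = 4 against 12). Opn1mw (-1.05 ± 0.20, adjusted p = 0.019) and Opn1sw were the 2 called lower there (0.359% of all genes). The Opn1mw call was lost without light-adapted replicate 1 or 2 or dark-adapted replicate 1 of that layer (-0.95, -1.15 and -0.89, adjusted p = 0.14, 0.075 and 0.12). In the ganglion cell layer 0 of 40 were higher (1.17% of all genes) and 3 lower (0.704%): Rlbp1 (-0.83 ± 0.13), Opn1mw (-1.01 ± 0.20) and Opn1sw. Here Opn1mw lost its call without light-adapted replicate 1 (adjusted p = 0.075) or dark-adapted replicate 2 (adjusted p = 0.084). With Opn1sw under the floor on 3 of 4 inner nuclear and all 4 ganglion cell layer arrays, its calls in these layers rest on the light-adapted photoreceptor layer arrays among those they were set against. In the inner plexiform layer 3 of 40 were higher (8.29% of all genes) and 3 lower (5.29%). Without its light-adapted arrays these were 1 and 1, where 35 of all 15057 genes passed in either direction. Rgr, an opsin of pigment epithelium and Müller glia that isomerises retinal, was at -0.12 ± 0.14 in the photoreceptor layer against the others (adjusted p = 0.62). In dark against light, Rlbp1 was higher in the inner plexiform layer by 1.40 ± 0.23 (limma adjusted p = 0.011, n = 2 against 2), and 1 of 40 passed there (1.83% of all genes). The call was lost without light-adapted replicate 1 (1.32, adjusted p = 0.054) or dark-adapted replicate 2 (1.40, adjusted p = 0.078). Of the 13 Müller glia markers other than Rlbp1, 1 was higher and 0 were lower in that comparison, with a median of 0.61 against -0.03 over all genes; their part was not tested. Opn1sw was lower in dark in the photoreceptor layer, in the whole retina and on average over the tissues, with all its dark-adapted photoreceptor layer and whole retina arrays under the floor.

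The genes most like each member over the 20 arrays were found by Pearson correlation of log2 values among all 15057 genes, a description in which the points share the 5 tissues. Those most like Rbp3 were Pde6g, a subunit of the rod phosphodiesterase (0.97), the rod channel gene Cnga1 (0.96) and complexin Cplx4 (0.96). For Abca4 they were Prom1, a gene of outer segment disc formation (0.98), Cplx4 (0.97) and the guanylate cyclase Gucy2f (0.97), and for Rdh12 Epb41l5 (0.96), the cadherin Pcdh15 (0.96) and the disc rim gene Prph2 (0.95). Above 0.9 stood 91 genes for Rbp3, 131 for Abca4 and 105 for Rdh12. Rdh8 had 0 genes above 0.9, with Zfp36l2 (0.87), Mef2d (0.85) and Samd7 (0.85) nearest, and Rdh5 had 0, with Lpo (0.81), Dnah3 (0.80) and Nid2 (0.80). Rdh10 had 11, led by Tut7 (0.92), Chd1 (0.91) and the long noncoding RNA Tug1 (0.91). Among the 6, Rbp3, Abca4 and Rdh12 correlated at 0.90 to 0.96 with each other. Rdh8 correlated at 0.61 to 0.70 with these 3, Rdh10 at 0.69 to 0.71, and Rdh5 at -0.39 to -0.30.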

How the data were processed

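Total RNA was labelled by a biotin cRNA protocol with a second amplification and hybridised to 20 arrays, per the labels' protocols. The deposited intensity values were made by the authors with GCRMA (background correction, normalisation between arrays and summary per probe set), per the submitters' processing notes; its version is not given in the sources used here. Their range shows a linear scale. Between 11.3% and 14.1% of an array's values were under the floor of 8, set before log2. The floor compresses differences of dim probe sets, and the effect of GCRMA on such differences was not tested.

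From 21789 probe sets with 1 symbol (updated through RefSeq identifiers for 21698), 16444 had a log2 value over 5 on at least 2 arrays, and the one with the highest mean stood for each of 15057 genes. limma 3.58.1 in R 4.3.3 fitted a mean for each of 10 groups, with an intensity trend and Benjamini-Hochberg adjustment over all genes at 0.05; tests are two-sided and ± is the standard error. The script was tested on simulated data. Precision is limited by the number of arrays. The members, gene lists, markers and motifs were chosen with earlier results of these data known. Named genes are all members, the listed retinoid genes that passed in the photoreceptor, inner nuclear or ganglion cell layer against the other 3 or between dark and light (up to 8 per comparison and direction), Rlbp1, Dhrs3 and Rgr, and the 3 genes most correlated with each tested member; some listed genes are not reported here. Leaving out arrays for the listed genes, and Rlbp1 from the Müller glia markers, was chosen after seeing the data. The alternatives were quantile normalisation, median centring, log2 of the intensity plus 16, no filter, a filter at 7, the mean of probe sets, no trend, array weights, only the compared arrays, a replicate block, and dropping every array in turn, those with Y-linked signal together, and both inner plexiform layer arrays from light.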

Additional observations from a re-analysis of the deposited data

Results flagged for a closer look

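Each tissue's 4 arrays were examined for a value far from the others (the gap to the nearest value over the whole range, Dixon's 95% criterion), which chance meets in about 1 of 20 sets; 7 of 45 sets met it. Rbp3 was at 366.1 on ganglion cell layer replicate 2 in light and at 211.0 on inner nuclear layer replicate 2 in dark, the highest of their tissues. Rdh10 was at 92.3 on inner plexiform layer replicate 2 in light and Rdh8 at 128.6 on photoreceptor layer replicate 1 in light, the lowest of theirs. Lrat was at 34.3 on inner nuclear layer replicate 2 in light. Rpe65 was at 9.0 on inner nuclear layer replicate 1 and at 10.4 on whole retina replicate 1, both in light, where the other 3 arrays were at or under the floor. The floor alone puts these last 2 past the criterion: with intensities under 8 kept, the ratios were 0.362 and 0.50, and 5 of 45 sets met it.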

How the results depend on the processing

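Of the 9 genes, Rbp3, Abca4, Rdh12 and Rdh8 kept their calls in the photoreceptor layer against the other 3 layers and against the inner nuclear and ganglion cell layers under all 12 alternatives and each left-out array, and no call changed direction. Counts of called genes changed beyond 1.5 times as follows. For the inner nuclear layer against the other 3, 0 became 1 with log2 of the intensity plus 16, the filter at 7 and the replicate block. For the inner plexiform layer, 2 became 1 with no filter, 0 without its light-adapted arrays and 1 when all arrays with Y-linked signal were dropped, which also took the ganglion cell layer from 2 to 1. Between the inner plexiform and ganglion cell layers 0 became 1 with median centring, the filter at 7 and the replicate block, and for the whole retina against the photoreceptor layer 2 became 4 with only the arrays of the comparison. The cause was not tested. Leaving out 1 array gave 4 to 5 called genes in the photoreceptor layer against the other 3, 0 to 1 in the inner nuclear, 1 to 2 in the inner plexiform and 1 to 3 in the ganglion cell layer; 4 to 4, 3 to 5 and 4 to 5 in the photoreceptor layer against the inner nuclear, inner plexiform and ganglion cell layers; 0 to 1 between the inner plexiform and ganglion cell layers; 0 to 3 for the whole retina against the photoreceptor layer; and 0 to 0 in every dark against light comparison. The lone array left in a group was assumed to vary like the other groups. The labels' replicate numbers were not taken as pairs. Deviations of replicate 1 arrays from their group means correlated at 0.01 to 0.48 between groups, over 0.1 in 32 of 45 pairs of groups. With 2 arrays per group, replicate 2 deviations mirror those of replicate 1. It follows from these positive correlations that the deviations of all 20 arrays correlated best with an array of their own number in another group. With the replicate block, calls over all genes in the inner nuclear layer went from 92 to 239. The F test, the average over tissues and some dark against light comparisons could not be fitted without the arrays with Y-linked signal or the light-adapted inner plexiform layer arrays. Dim signal limits Rdh11, Lrat and Rpe65.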
